A study of Mus musculus with 2 samples.

Results

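MHC class I molecules consist of a heavy chain and β2-microglobulin, and the transcripts of 9 such genes were counted in CD45+ cells of the brain. The members were the rows of the deposited gene list whose symbols were *B2m*, *H2-K1*, *H2-D1*, *H2-Q4*, *H2-Q6*, *H2-Q7*, *H2-T22*, *H2-T23* and *H2-M3*, 9 of 27998 genes. All 9 were found, each in 1 row. *B2m* encodes β2-microglobulin and the other 8 encode heavy chains. The cells came from galc-/- mice (twi), which lack galactosylceramidase, and from galc+/+ littermates (WT), all of the C57Bl/6 strain, untreated and at postnatal day 21 (p21). Cells of 2 to 3 animals were pooled for each genotype and made into 1 droplet library by the 10x Genomics 3′ method, in which each captured transcript carries a unique molecular identifier (UMI). With 1 library per genotype there was no replicate, so no test was made. Every interval given is a 95% interval for counting error alone and does not cover differences between animals or between cells.

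MHC class I displays peptides from inside the cell to CD8+ T cells. The classical heavy chains, H2-K1 and H2-D1, are made by nearly all nucleated cells and present to conventional CD8+ T cells. The others are nonclassical: H2-Q6 and H2-Q7 make Qa-2, H2-T23 makes Qa-1, which presents leader peptides of other class I chains to the CD94/NKG2 receptors of NK and T cells, H2-T22 is bound by some γδ T cell receptors, and H2-M3 presents N-formylated peptides. Interferons raise transcription of these genes, and NLRC5 is the transactivator dedicated to them. Microglia of a healthy brain are known for low class I.

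The heavy chain genes lie on chromosome 17 and *B2m* lies on chromosome 2 (GRCm38 coordinates, GENCODE M21). *H2-K1* was at chr17:33996017-34000347, *H2-D1* at chr17:35262730-35267499, and the Q genes followed at chr17:35379617-35385290 (*H2-Q4*), chr17:35424850-35430055 (*H2-Q6*) and chr17:35439155-35443773 (*H2-Q7*). *H2-T23* was at chr17:36029773-36032855, *H2-T22* at chr17:36037128-36042747 and *H2-M3* at chr17:37270220-37274484. *B2m* was at chr2:122147686-122153083. All are annotated as protein coding.

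The promoters are shown because the members are compared below between cells with and without interferon-induced transcripts. In the 250 bases before each start site (RefSeq promoters, GRCm38.p6), the letters GAANNGAAA or GAAANNGAA, 2 spacings of the interferon-stimulated response element searched on both strands, were found in all 9 members. Of all 32851 promoters of this length, 12.5% held either. GAANNGAAA was found in 6 members (*H2-K1*, *H2-D1*, *H2-Q4*, *H2-Q6*, *H2-Q7* and *H2-M3*) and in 6.31% of all promoters, and GAAANNGAA in the other 3 and in 7.13%. The letters GGGGATTCC, an NF-κB site of the class I enhancer, were found in 4 members (*H2-K1*, *H2-D1*, *H2-Q6* and *H2-Q7*) and in 0.213% of all promoters. These letters were chosen with the promoters in view, so the matches are a description. For *H2-D1* and *H2-T23* the RefSeq start site lies inside the GENCODE span given above, and so do their stretches. Each stretch below is written 5′ to 3′ on the strand of the gene, with the matches of these letters, or of their reverse complement, in capitals.
*H2-K1*, minus strand, chr17:34000414-34000473: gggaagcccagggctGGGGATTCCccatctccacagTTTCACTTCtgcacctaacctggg
*H2-D1*, plus strand, chr17:35262908-35262967: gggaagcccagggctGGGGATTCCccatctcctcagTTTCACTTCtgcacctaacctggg
*H2-Q6*, plus strand, chr17:35424662-35424721: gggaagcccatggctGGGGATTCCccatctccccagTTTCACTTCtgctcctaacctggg
*H2-Q7*, plus strand, chr17:35439007-35439065: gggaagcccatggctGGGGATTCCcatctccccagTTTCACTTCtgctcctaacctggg
*H2-Q4*, plus strand, chr17:35379449-35379487: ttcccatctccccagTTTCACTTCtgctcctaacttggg
*H2-M3*, plus strand, chr17:37270118-37270156: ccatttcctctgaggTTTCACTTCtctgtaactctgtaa
*H2-T22*, minus strand, chr17:36042909-36042947: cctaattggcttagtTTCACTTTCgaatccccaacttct
*H2-T23*, minus strand, chr17:36032801-36032839: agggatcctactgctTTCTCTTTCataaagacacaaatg
*B2m*, plus strand, chr2:122147533-122147571: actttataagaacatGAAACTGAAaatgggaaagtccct

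The WT library held 3749714 UMIs in 1278 barcodes and the twi library 4807539 UMIs in 1220 barcodes, and no barcode was shared. Cells with at most 15% mitochondrial UMIs were kept, 1271 in WT and 1207 in twi. Each kept cell was given a class from the UMIs of marker genes. The classes were CD8+ T (96 WT and 381 twi cells), CD4+ T (46 and 70), NK (67 and 59), B (550 and 170), neutrophil (225 and 64), monocyte (32 and 50) and microglia (24 and 22). A further 20 WT and 13 twi cells passed more than 1 gate and 211 and 378 passed none, and these were left out of the class values. *Galc*, the mutated gene, was barely counted (4 WT and 8 twi UMIs), and since the assay reads transcript ends, these UMIs cannot check the genotype. *Xist* had 0 UMIs in the kept WT cells, whereas in twi it had 2656 UMIs and was seen in 47.6% of cells. Cells with a Y-linked transcript and without *Xist* made up 38.3% of WT and 17.2% of twi cells. The pools thus also differed in sex, and sex and genotype cannot be fully told apart.

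The class names were checked on markers that the gates did not use where there were any. A neutrophil list (*Retnlg*, *Csf3r*, *Cxcr2*, *Ngp*, *Ltf*, *Camp*, *Mmp8*) had 302 UMIs per cell in WT neutrophils and 331 in twi neutrophils, and at most 3.06 per cell in any other class. The microglia gate was the least pure. Of its cells, 19 of 24 in WT and 13 of 22 in twi had at least 5 UMIs of the complement genes *C1qa*, *C1qb* and *C1qc* together with at least 3 UMIs of *Siglech*, *Sparc*, *P2ry12* and *Tmem119*, which mark microglia. The other 5 WT cells held 55.1% of the UMIs of the WT gate, and the other 9 twi cells 33.1% of those of the twi gate. Levels of the summed heavy chains and of *B2m*, and the ratios of the members, are therefore given for the whole gate and for the 19 and 13 marked cells. Counts of called members, the make-up and the other gene lists are for the whole gate only.

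Class I transcripts were found in every class. Levels are given as CPM, the counts scaled so that all genes of the same cells sum to 1000000. A 3′ UMI count does not scale with transcript length, so levels were not divided by length. The summed heavy chains were highest in NK cells, at 10522 CPM in WT and 9387 CPM in twi, which was 1.82 times (1.72 to 1.93) and 1.27 times (1.21 to 1.33) the level of the next class. CD8+ T cells came next, with 5773 CPM in WT and 7390 CPM in twi. CD4+ T cells had 5288 CPM in WT and 6304 CPM in twi, and B cells 5388 and 4889 CPM. In WT the values of B and CD4+ T cells could not be told apart (ratio 1.02, 0.948 to 1.10). Monocytes had 4042 CPM in WT and 4557 CPM in twi. The lowest levels were those of WT microglia (1633 CPM) and WT neutrophils (2089 CPM), which differed beyond counting error (ratio 1.28, 1.09 to 1.51). In twi, neutrophils were the lowest class, at 2349 CPM. The microglia gate had 5299 CPM in twi, which could not be told apart from the twi B cells (ratio 1.08, 0.996 to 1.18). The 19 marked WT cells of the gate had 1613 CPM and the 13 marked twi cells 6026 CPM.

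*B2m* followed another order. In WT it was highest in NK cells (4733 CPM), 1.14 times (1.04 to 1.25) the level of monocytes (4152 CPM). Monocytes and CD8+ T cells (4057 CPM) could not be told apart, nor could CD8+ and CD4+ T cells (3886 CPM). B cells had 2697 CPM, the microglia gate 2347 CPM and neutrophils 1121 CPM. The 19 marked WT cells of the microglia gate had 3494 CPM, above the B cells, so the place of microglia in this order depends on the gate. In twi it was highest in microglia, at 8564 CPM, 1.55-fold (1.46 to 1.65) the level of the next class, the CD8+ T cells with 5518 CPM. NK cells (5208 CPM) and monocytes (5097 CPM) followed within counting error, then CD4+ T cells (4552 CPM), B cells (2720 CPM) and neutrophils (1561 CPM). Fewer cells of a class do not enter these values, which are levels within a class.

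**Figure D1:**
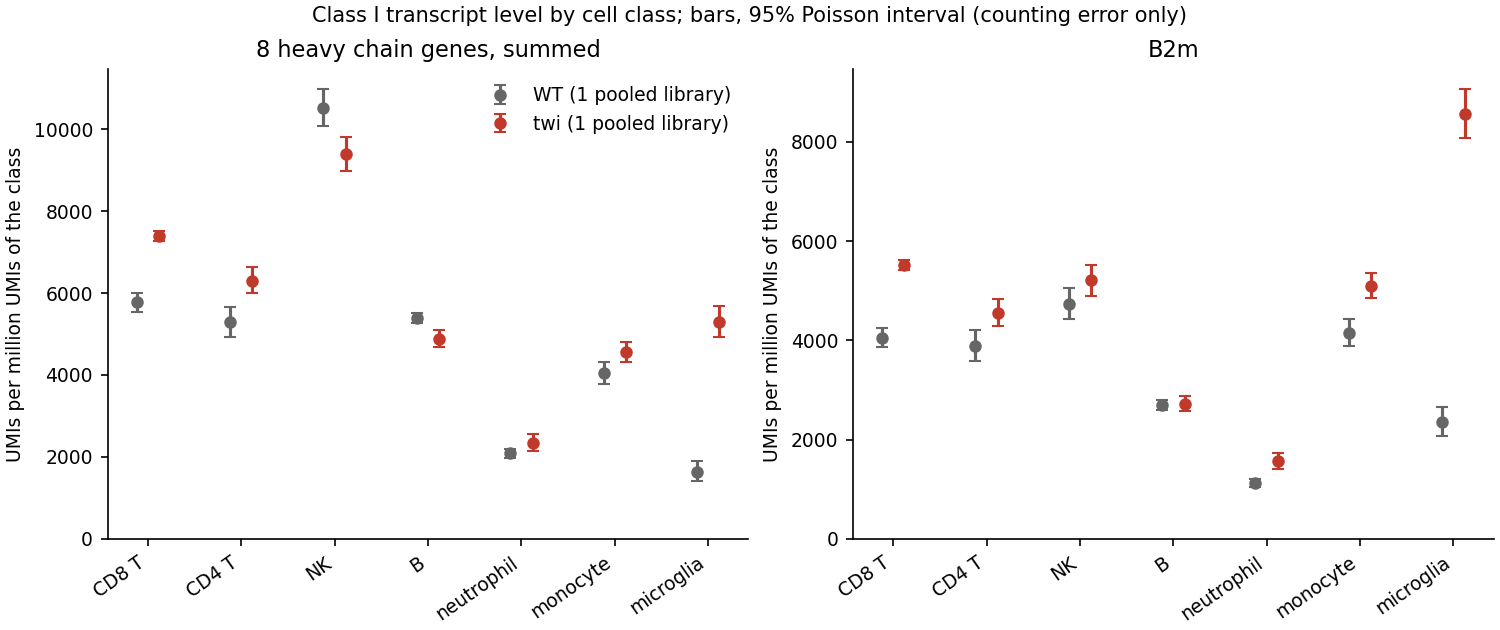
The vertical axes give CPM of a class for the 8 heavy chain genes summed (left) and for *B2m* (right), with a grey point for the WT library, a red point for the twi library and bars for the 95% Poisson interval. Heavy chains peak in NK cells at 10522 (WT) and 9387 (twi). The widest gap between the libraries is in the whole microglia gate, 1633 against 5299 for heavy chains and 2347 against 8564 for *B2m*.

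Class I transcripts were near saturation per cell in most classes. Every T, NK, monocyte and microglia-gated cell of both libraries carried at least 1 heavy chain UMI. Only 4 of 550 WT B cells and 7 of 225 WT neutrophils had none. Members took 0.321% of all UMIs in WT neutrophils and 1.53% in WT NK cells. No class is known to lack class I, so a share from free RNA could not be read from the classical genes. *H2-Q6* was seen in 2 of 225 WT neutrophils (0.889%, median depth 2354 UMIs) and in 38 of 67 WT NK cells (56.7%, median depth 2727 UMIs), so its share was not alike in all classes.

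The make-up of the heavy chain UMIs differed between classes. The classical pair *H2-K1* and *H2-D1* gave 80.7% (79.1 to 82.3%) of heavy chain UMIs in WT CD8+ T cells and 93.5% (92.0 to 94.7%) in WT neutrophils. In neutrophils, *H2-D1* alone gave 80.2% in WT and 82.7% in twi. *H2-K1* UMIs per *H2-D1* UMI were 0.166 (0.141 to 0.194) in WT neutrophils and 0.141 (0.105 to 0.186) in twi neutrophils. The same quotient was 0.753 (0.688 to 0.825) in WT CD8+ T cells and 0.796 (0.766 to 0.828) in twi CD8+ T cells, and 0.488 and 0.470 in WT and twi B cells. The low share of *H2-K1* in neutrophils was thus seen in both libraries.

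*H2-Q4*, *H2-Q6* and *H2-Q7* together gave 0.955% (0.510 to 1.63%) of heavy chain UMIs in WT neutrophils and 2.61% (1.68 to 3.85%) in WT monocytes. In lymphoid classes of WT they gave 8.17% (CD4+ T) to 13.1% (CD8+ T). The 3 genes gave 17.3% (16.7 to 17.9%) in twi CD8+ T cells, outside the WT interval of 11.8 to 14.5%. NK cells had 12.9% in WT and 12.8% in twi, and B cells 11.02% and 10.08%. CD4+ T cells had 8.17% (6.41 to 10.2%) in WT and 11.2% (9.70 to 12.9%) in twi, and monocytes 2.61% and 4.45% (3.44 to 5.66%). Neutrophils had 1.61% (0.696 to 3.14%) in twi, and the microglia gate had 4.5% (1.98 to 8.76%) in WT and 5.4% (3.89 to 7.29%) in twi. The share was thus higher in twi in every class but NK and B cells. The intervals did not overlap between the libraries in CD8+ T cells. The part of lymphoid transcripts in the twi monocyte share was not tested.

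**Figure D2:**
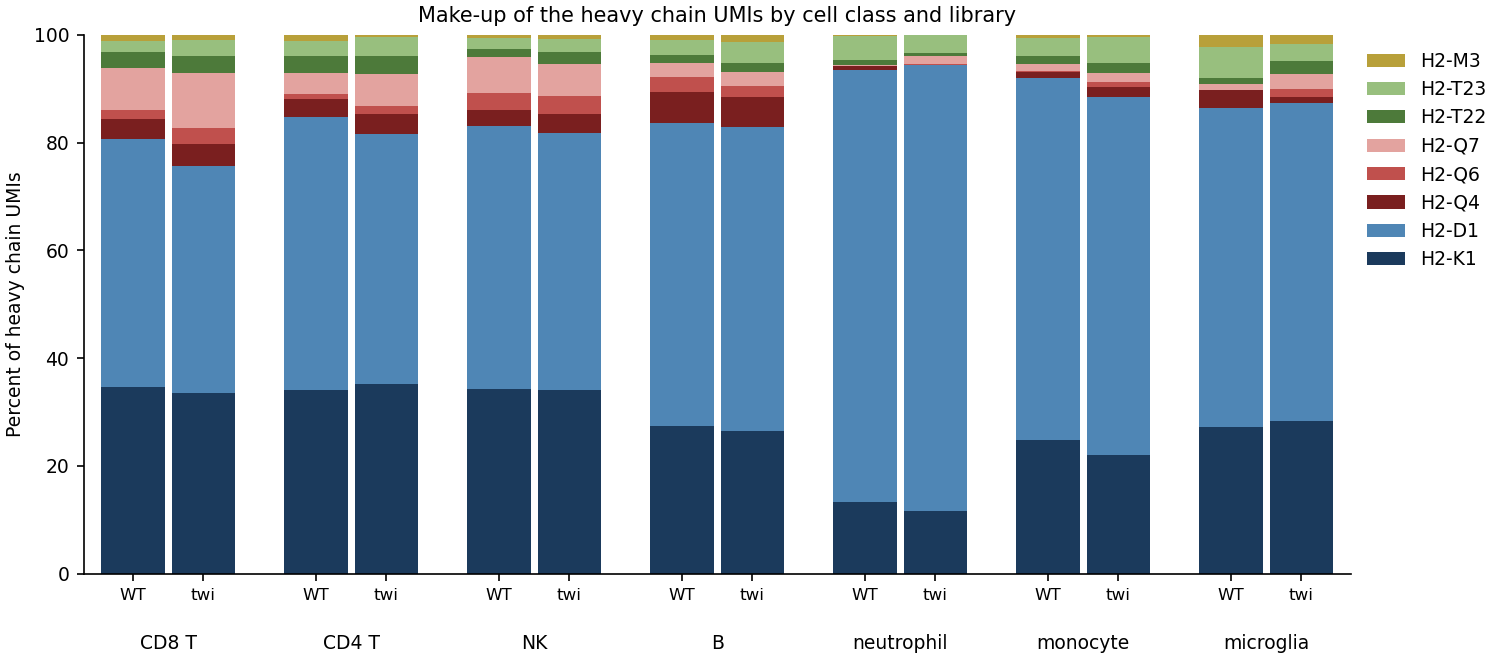
Bars give the percent of heavy chain UMIs that each of the 8 heavy chain genes contributed, by class and library. *H2-D1* takes 80.2% and 82.7% of the WT and twi neutrophil bars, and the red segments of the Q genes widen from 13.1% to 17.3% between WT and twi CD8+ T cells.

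*B2m* UMIs per heavy chain UMI also depended on the class. The quotient was 0.450 (0.416 to 0.486) in WT NK cells and 0.555 (0.515 to 0.598) in twi NK cells. In CD8+ T cells it was 0.703 (0.660 to 0.748) in WT and 0.747 (0.728 to 0.766) in twi. Monocytes had 1.03 and 1.12, and the microglia gate had 1.44 (1.18 to 1.75) and 1.62 (1.47 to 1.77). The marked cells of that gate had 169 *B2m* and 78 heavy chain UMIs in WT, and 900 and 563 in twi. Their quotient was thus lower in twi than in WT, the other way from the whole gate. *B2m* thus outnumbered the counted heavy chains in microglia and was outnumbered by them in lymphoid cells and neutrophils of both libraries.

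The comparison of twi with WT asks which brain leukocytes carried more class I transcripts at p21. The summed heavy chains were 3.25-fold (2.75 to 3.85) higher in twi than in WT microglia-gated cells. As a mean over cells the same ratio was 2.44, below that interval. In CD8+ T cells the ratio was 1.28 (1.23 to 1.34), in CD4+ T cells 1.19 (1.10 to 1.30), in monocytes 1.13 (1.04 to 1.23) and in neutrophils 1.12 (1.01 to 1.25). NK cells (0.892, 0.838 to 0.9495) and B cells (0.907, 0.864 to 0.953) had slightly less in twi. Over all kept cells, the heavy chains were 4923 CPM in WT and 6873 CPM in twi, a mixture in which the cell classes also differed in number. The ratio in CD8+ T cells was 1.44 times (1.33 to 1.55) that in NK cells and 1.41 times (1.32 to 1.51) that in B cells, and it was 1.07 times (0.977 to 1.18) that in CD4+ T cells, by an approximate log-normal interval. Scaling moved the small ratios: as UMIs per cell, NK cells had 1.06, B cells 1.08 and monocytes 0.983, on the other side of 1 from the CPM values. Total UMIs per cell in twi were between 0.872 (monocytes) and 1.41 times (microglia) those in WT, a shift of all genes of -0.20 to 0.50 on the log2 scale between the scalings.

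For single members, a ratio of at least 1.5 in either direction with at least 10 UMIs over both libraries was called. In CD8+ T cells 3 of 9 members were called higher, against 24.9% of all 8766 genes with at least 10 UMIs. In CD4+ T cells 2 of 9 were higher (21.4% of all genes) and 1 was lower (18.2%). In NK cells 0 of 9 were higher (16.8%), and in B cells 0 of 9 were higher (11.4%) and 1 was lower (16.3%). Neutrophils had 5 members with 10 UMIs, of which 0 were higher (17.3%). Monocytes had 4 of 9 higher (16.4%). In the microglia gate, 8 of 9 were higher, against 19.8% of all genes. With 9 members, 1 gene moves the share by more than several of these gaps. The microglia gate is the class whose count stands farthest from its background, and none of the 4 monocyte calls had an interval above 1. The median ratio of the members was 1.36 in CD8+ T cells and 3.36 in the microglia gate, where the median log2 ratio was 1.75 for members and -0.11 for all genes.

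**Figure D3:**
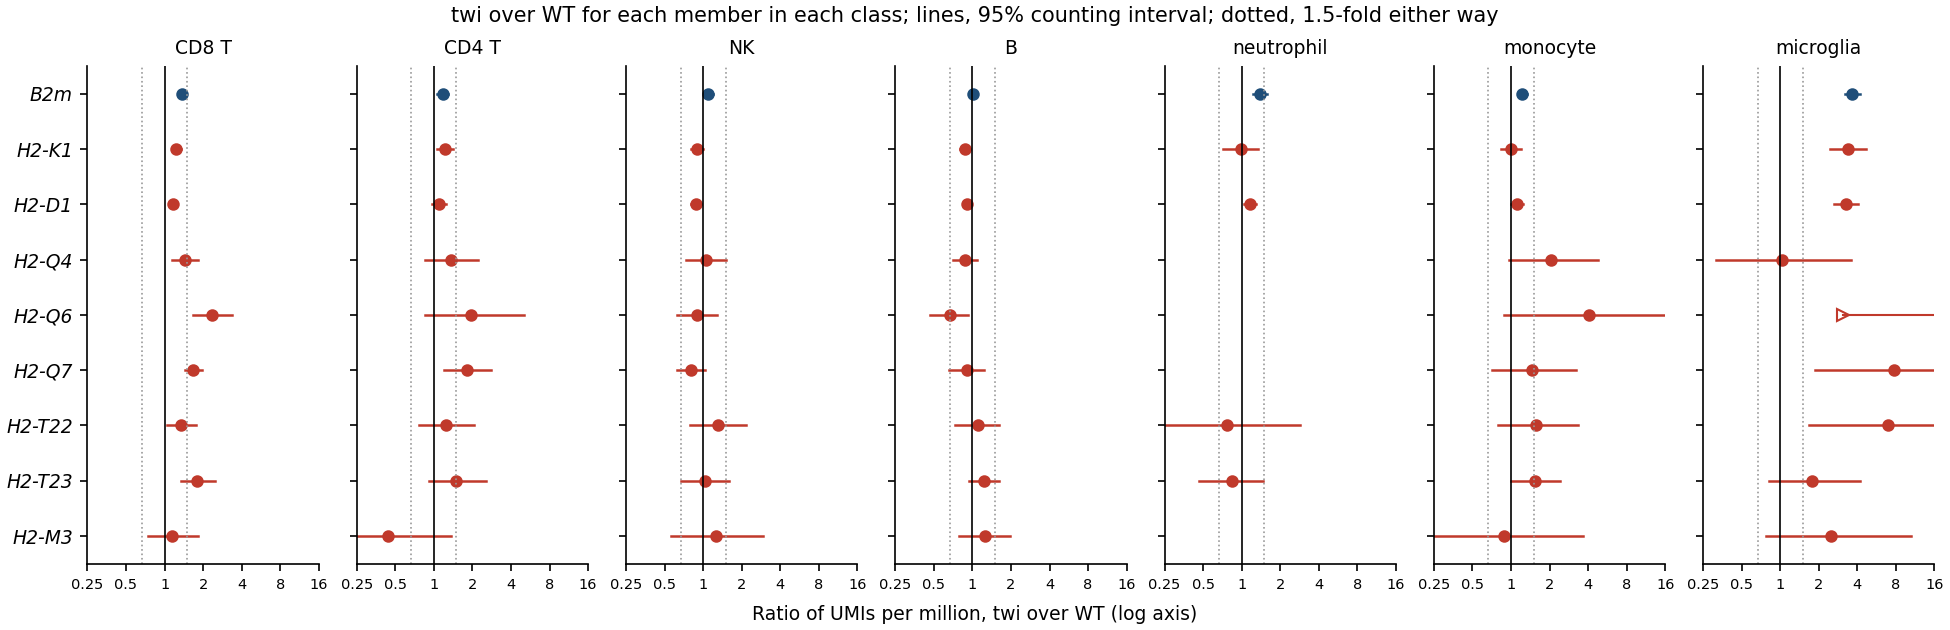
Each panel gives, on a log axis, the twi over WT ratio of CPM for the 9 members in 1 class, with 95% counting intervals and dotted lines at a 1.5-fold difference either way. Members under 10 UMIs are not drawn, and intervals are clipped at the axis. The open triangle marks *H2-Q6* in microglia, with 0 WT UMIs, set against a floor of 3 counts. In microglia, 8 members lie past the 1.5-fold line and *H2-Q4* lies at 1.03.

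In CD8+ T cells, the genes of Qa-2 and Qa-1 had wider differences between the libraries than the classical ones. *H2-Q6* had 91.3 CPM in WT and 214 CPM in twi, a ratio of 2.35 (1.68 to 3.36). *H2-T23*, the Qa-1 gene, had 120 CPM in WT and 215 CPM in twi, a ratio of 1.79 (1.33 to 2.45). *H2-Q7* had 454 and 760 CPM, a ratio of 1.67 (1.44 to 1.96). These are the 3 called members, and all of their intervals lay above 1. Over 10 alternative ways of processing, *H2-Q6* had ratios of 2.18 to 4.06 and *H2-T23* of 1.54 to 2.53. *H2-Q7* had 1.27 to 2.29, so its call did not hold in all of them. *H2-Q4* (ratio 1.44, 1.15 to 1.83), *B2m* (1.36, 1.29 to 1.43) and *H2-T22* (1.35, 1.05 to 1.76) were higher by less than 1.5-fold. The classical *H2-K1*, with 2002 CPM in WT and 2479 CPM in twi, had a ratio of 1.24 (1.15 to 1.34), and *H2-D1*, with 2658 and 3112 CPM, a ratio of 1.17 (1.10 to 1.25). *H2-M3* had 62.5 and 71.2 CPM, and its interval (0.744 to 1.81) held 1.

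Per cell, WT and twi CD8+ T cells overlapped. The heavy chains had a median of 55.9 UMIs per 10000 UMIs of the cell in WT, with a 10th to 90th percentile of 32.0 to 86.4, and a median of 73.2 in twi, with 43.2 to 126. For *B2m* the medians were 40.7 and 52.6. *H2-Q6* was seen in 26.0% (25 of 96) of WT and 57.7% (220 of 381) of twi CD8+ T cells, and in 6.25% and 20.9% once each cell was thinned to 1000 UMIs. For *H2-Q7* the shares were 71.9% and 90.8%, or 37.5% and 53.2% thinned. The twi cells were thus shifted upward with a long upper tail. The end of that tail lay in shallow cells. The highest heavy chain value, 344, was in a cell of 1424 UMIs, against a median of 4179 for twi CD8+ T cells. The shift in detection of *H2-Q6* and *H2-Q7* was still seen at equal depth.

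The make-up of the CD8+ T class also moved with the comparison. *Ccr7*, which marks naive and central memory T cells, was seen in 64.6% of WT and 27.6% of twi CD8+ T cells. Among cells with no *Ccr7* UMI, 34 in WT and 276 in twi, the ratio was 1.48 for heavy chains and 1.52 for *B2m*. WT CD8+ T cells averaged 1.5 *Ccr7* UMIs per cell, so a cell that expresses it can show none. This split therefore cannot set all naive cells apart, and the part of cell state in the ratio was not tested. Neutrophil transcripts were more frequent in the other cells of the WT library, with 4.03 *S100a8* and *S100a9* UMIs per CD8+ T cell in WT and 1.47 in twi. Cytosolic ribosomal protein genes took 39.1% of UMIs in WT and 35.1% in twi CD8+ T cells, and without them and the mitochondrial genes the heavy chain ratio was 1.19. Among cells with a Y-linked transcript and no *Xist*, 42 in WT and 50 in twi, the heavy chain ratio was 1.23 and the *B2m* ratio 1.19. The part of free RNA in these ratios was not tested.

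In the microglia gate, *B2m* had 2347 CPM in WT and 8564 CPM in twi, a ratio of 3.65 (3.18 to 4.20). *H2-K1* had 445 and 1496 CPM (ratio 3.36, 2.45 to 4.70), and *H2-D1* had 965 and 3129 CPM (ratio 3.24, 2.61 to 4.06). Thinned to 1000 UMIs per cell, the ratios were 3.04 for *B2m*, 4.71 for *H2-K1* and 2.28 for *H2-D1*. *H2-Q7* had 2 UMIs in WT and 20 in twi (ratio 7.72, 1.88 to 68.1), and *H2-T22* 2 and 18 UMIs (6.95, 1.66 to 61.7). As a mean over cells the *H2-Q7* ratio was 1.42, under the 1.5-fold line. *H2-Q6* had 0 UMIs in WT and 12 in twi, 3.09-fold higher when set against a floor of 3 counts in the WT gate. The lower limit of its counting interval was 2.14. With *H2-Q6* at 3.09 the median ratio of the members was still 3.24. *H2-T23* (1.78, 0.813 to 4.18) and *H2-M3* (2.51, 0.775 to 10.6) passed 1.5-fold with intervals that held 1. *H2-Q4* had 6 and 8 UMIs, a ratio of 1.03 (0.313 to 3.60). T cell transcripts were also counted in the gate, mostly in twi. *Cd3d*, *Cd3e* and *Cd3g* together had 1 UMI in WT and 13 in twi, and *Cd8a* and *Cd8b1* had 1 and 15. In twi CD8+ T cells *H2-Q7* had 760 CPM. The part of T cell transcripts in the microglia counts was not tested.

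The cells marked as microglia showed the same direction. In the 19 WT and 13 twi marked cells, the heavy chains had 1613 CPM in WT and 6026 CPM in twi (ratio 3.74, 2.95 to 4.80), and *B2m* had 3494 and 9633 CPM (ratio 2.76, 2.34 to 3.27). *H2-K1* (ratio 3.86) and *H2-D1* (4.33) were again higher in twi, while *H2-Q4*, with 6 and 5 UMIs, had a ratio of 0.431 (0.104 to 1.70). *H2-Q7* had 2 and 18 UMIs (4.66, 1.12 to 41.4), and *H2-Q6* 0 and 10 UMIs, with a lower limit of 1.16. *H2-T22*, with 1 and 10 UMIs, had an interval that held 1 (5.18, 0.74 to 225). So did *H2-T23* (1.86, 0.667 to 6.42) and *H2-M3* (2.07, 0.559 to 11.4). Cell by cell, *B2m* in the marked cells lay between 10.5 and 68.1 UMIs per 10000, with a median of 33.2, in WT and between 57.5 and 162, with a median of 95.3, in twi. The heavy chains lay between 3.92 and 45.9 (median 14.9) in WT and between 7.23 and 104 (median 56.6) in twi, and overlapped over most of the WT range, whereas *B2m* overlapped only between 57.5 and 68.1. The depth differed as well, with a median of 2551 UMIs per marked cell in WT and 8325 in twi. The unmarked cells differed between the libraries: 3 of 9 in twi had at least 10 UMIs of the class II gene *H2-Ab1* and 0 of 5 in WT did, while 2 in each library had at least 10 UMIs of the monocyte gene *Ly6c2*.

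**Figure D4:**
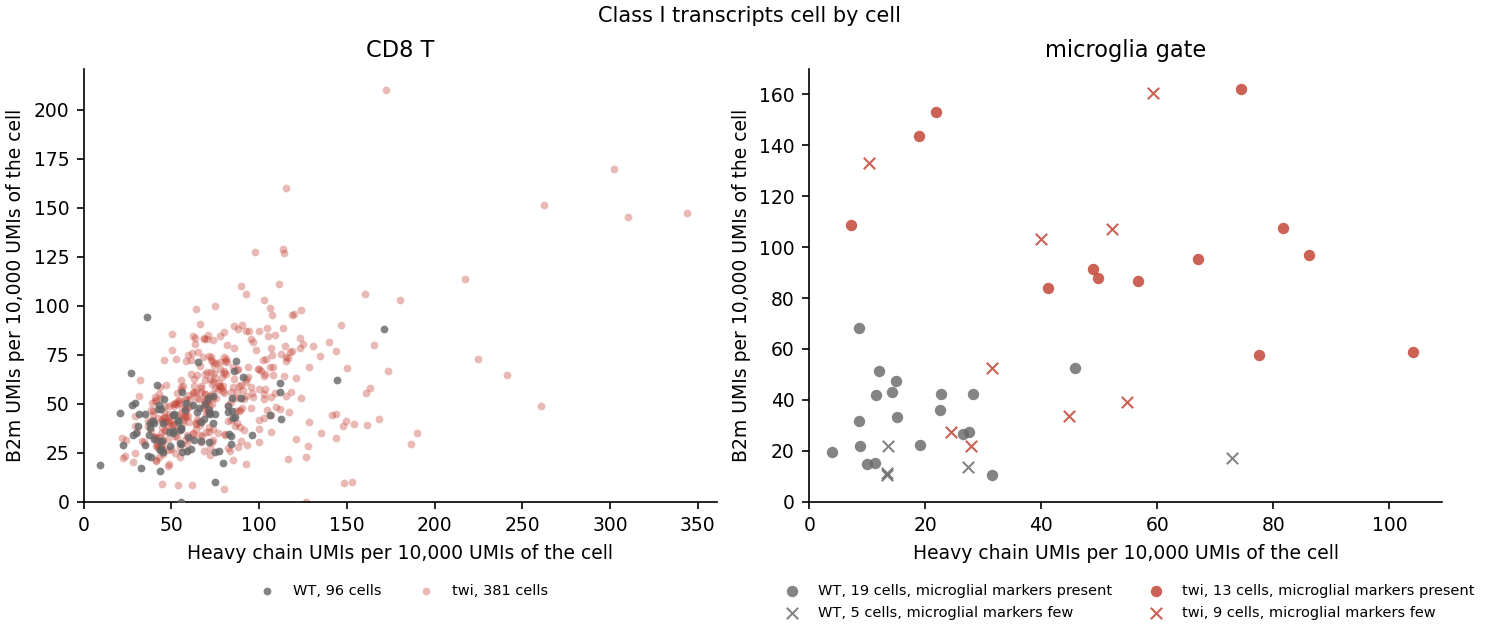
Each point is 1 cell, placed by heavy chain UMIs (horizontal) and *B2m* UMIs (vertical) per 10000 UMIs of that cell, in CD8+ T cells (left) and the microglia gate (right), WT grey and twi red. Circles on the right are cells with microglial markers and crosses cells with few. Marked WT cells lie between 10.5 and 68.1 for *B2m* and marked twi cells between 57.5 and 162, whereas the CD8+ T cells of the libraries overlap, with medians of 40.7 and 52.6.

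The remaining classes showed smaller differences. In CD4+ T cells, *H2-Q7* had 207 CPM in WT and 373 CPM in twi (ratio 1.80, 1.20 to 2.77). *H2-Q6* had 8 and 24 UMIs (1.96, 0.853 to 5.05) and *H2-M3*, the 1 member called lower, had 9 and 6 UMIs (0.436, 0.128 to 1.37). *H2-K1* (1.23, 1.06 to 1.42) and *B2m* (1.17, 1.06 to 1.29) had intervals above 1. In monocytes the 4 called members (*H2-Q4*, *H2-Q6*, *H2-T22* and *H2-T23*) had 2 to 67 UMIs per library and intervals that held 1. For *B2m* the monocytes had 4152 and 5097 CPM (1.23, 1.13 to 1.33), and for *H2-K1* 1001 CPM in each library.

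NK and B cells had no member called higher. NK cells had 3598 CPM of *H2-K1* in WT and 3204 CPM in twi (ratio 0.891, 0.8002 to 0.991), and 5132 and 4478 CPM of *H2-D1* (0.872, 0.797 to 0.955). *B2m* went the other way in NK cells (1.10, 1.01 to 1.20). In B cells, *H2-Q6* had 150 CPM in WT and 99.5 CPM in twi (0.664, 0.466 to 0.928), and *H2-K1* (0.876) and *H2-D1* (0.910) were lower with intervals below 1, whereas *B2m* had a ratio of 1.01 (0.944 to 1.08). The *H2-Q6* ratio in CD8+ T cells was 3.53 times (2.21 to 5.64) that in B cells and 2.62 times (1.62 to 4.23) that in NK cells. In neutrophils, *B2m* had 1121 CPM in WT and 1561 CPM in twi (1.39, 1.22 to 1.59), *H2-D1* had 1675 and 1943 CPM (1.16, 1.03 to 1.30) and *H2-K1* 278 and 274 CPM (0.985, 0.720 to 1.33). *H2-Q4*, *H2-Q6*, *H2-Q7* and *H2-M3* had under 10 UMIs there.

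Among twi CD8+ T cells, those with interferon-induced transcripts carried more class I. The 378 twi CD8+ T cells of at least 1000 UMIs were split by whether they had, at 1000 UMIs, a UMI of *Isg15*, *Ifit1*, *Ifit3*, *Ifit3b*, *Rsad2* or *Usp18*, genes that type I interferon induces. The 143 cells with such a UMI had 8621 CPM of heavy chains and the 235 without had 6680 CPM, a ratio of 1.29 (1.25 to 1.34). *H2-T22* had the widest difference, 328 against 181 CPM (1.81, 1.49 to 2.20), followed by *H2-T23* (1.57, 1.28 to 1.92) and *H2-Q4* (1.44, 1.22 to 1.71). *H2-K1* had a ratio of 1.33 (1.26 to 1.42), *H2-D1* 1.19 (1.13 to 1.26) and *B2m* 1.22 (1.17 to 1.27). *H2-M3*, whose promoter holds GAANNGAAA, had 62.2 CPM in cells with and 76.4 CPM in cells without (0.815, 0.550 to 1.19). Median depths were 3846 UMIs with and 4297 UMIs without. The same split gave heavy chain ratios of 1.26 (1.11 to 1.42) in twi CD4+ T cells and 1.91 (1.63 to 2.23) in WT neutrophils. Depths differed more there, with medians of 1735 UMIs with and 2807 without in the neutrophils, and 3887 and 3097 in the CD4+ T cells. The part of depth in these ratios was not tested. The interval held 1 in WT CD8+ T cells (1.11, 0.981 to 1.26), WT B cells (1.11, 0.939 to 1.31) and twi monocytes (1.10, 0.9645 to 1.25).

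**Figure D5:**
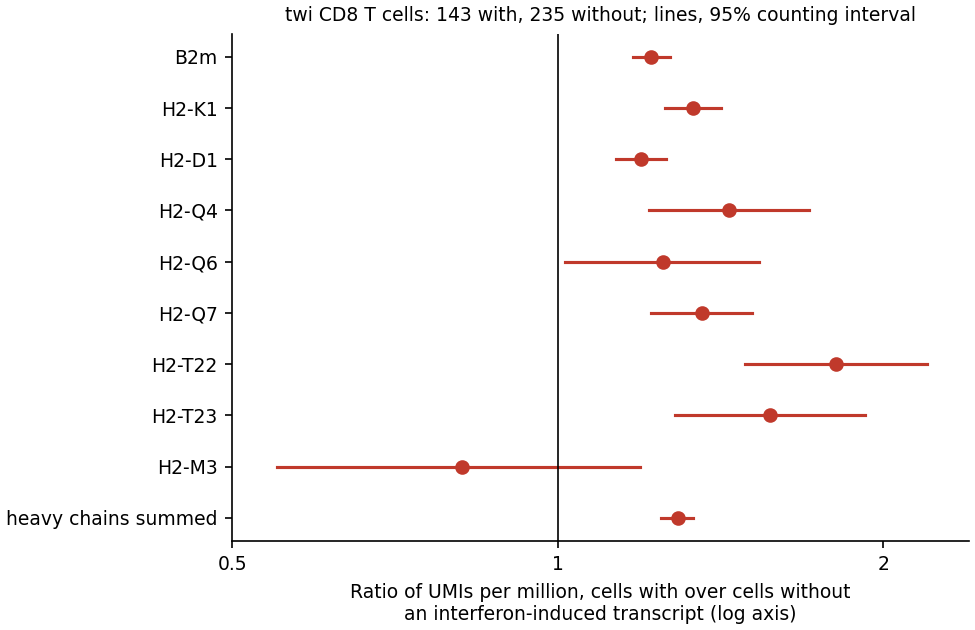
The horizontal log axis gives the ratio of CPM between the 143 twi CD8+ T cells with an interferon-induced transcript and the 235 without, with 95% counting intervals. All members but *H2-M3* lie above 1, with *H2-T22* farthest at 1.81.

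Such cells made up 37.8% of twi and 10.4% (10 of 96) of WT CD8+ T cells. Among these 143 twi and 10 WT cells, the twi over WT ratio was 1.36 (1.20 to 1.53) for heavy chains and 1.295 (1.13 to 1.49) for *B2m*. Among the cells without such a UMI at that depth, the twi over WT ratio was 1.17 (1.12 to 1.23) for heavy chains, 1.29 (1.22 to 1.37) for *B2m*, 2.14 (1.49 to 3.16) for *H2-Q6* and 1.62 (1.16 to 2.32) for *H2-T23*. For *H2-T22* it was 1.09 (0.816 to 1.47). The intervals of *H2-Q4* (1.27, 0.988 to 1.65) and *H2-M3* (1.18, 0.747 to 1.94) also held 1. At full depth 63.2% of twi and 20.8% of WT CD8+ T cells had a UMI of the 6 genes, so the cells counted as without include some that carried these transcripts. In the microglia gate, 16.7% of WT and 59.1% of twi cells had a UMI of the 6 genes at full depth. Median depths there were 2629 UMIs in WT and 5197 in twi, so these shares are not at equal depth. One WT cell of 1451 UMIs held 77 of the 83 WT UMIs, the other 23 WT cells held 6, and the 22 twi cells held 55. *Ifit1* (16 WT and 3 twi UMIs) and *Rsad2* (37 and 4) were lower in twi, while *Isg15* was higher (ratio 2.46, 1.22 to 5.36). In cells of the gate without such a UMI at 1000 UMIs, 21 in WT and 14 in twi, the heavy chain ratio was 3.06 (2.55 to 3.69).

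Genes that serve class I were counted from lists chosen with earlier results of these data known. Of 8 peptide loading and trimming genes, 2 were called higher in CD8+ T cells, against 24.9% of all genes, and 0 lower (11.4%). *Tap1*, which carries peptides into the endoplasmic reticulum, had 84.1 CPM in WT and 150 CPM in twi (1.79, 1.26 to 2.62), and *Tapbpl*, a peptide editor, had 57.7 and 93.3 CPM (1.62, 1.05 to 2.59). *Tapbp* (tapasin, 1.36) and *Tap2* (1.41) were higher by less. The general chaperone *Canx* had a ratio of 0.968 (0.725 to 1.31). In the microglia gate *Tap1* had 6 and 23 UMIs (2.96, 1.17 to 8.88), *Tap2* 6 and 16 UMIs (2.06, 0.765 to 6.42) and *Canx* 50 and 42 UMIs (0.648, 0.420 to 0.997), and *Calr* and *Pdia3* had ratios of 0.934 and 1.01. The median of the list was 1.08 there, against 3.36 for the members. In NK cells *Tapbp* was called higher (1.88, 1.22 to 2.94) and *Tapbpl* lower (0.662, 0.327 to 1.31), against 16.8% and 18.6% of all genes.

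Of 7 transcription factor genes, 3 were called higher in CD8+ T cells (24.9% of all genes), and the intervals of 2 of them held 1. *Nlrc5*, the class I transactivator, had 8 UMIs in WT and 65 in twi (1.82, 0.873 to 4.40), *Irf1* had 67.3 and 105 CPM (1.56, 1.05 to 2.41), and *Rfxank* had 3 and 27 UMIs (2.02, 0.622 to 10.4). In the microglia gate only 3 of the 7 had at least 10 UMIs. Of these, 1 was called higher and 2 lower, against 19.8% and 27.8% of all genes, and their median ratio was 0.441.

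Of 12 receptor genes with at least 10 UMIs in CD8+ T cells, 7 were called higher and 1 lower, against 24.9% and 11.4% of all genes. The list holds *Cd8a* and *Cd8b1*, which the gate used and which were not called. *Klrc1* and *Klrd1* encode NKG2A and CD94, which bind Qa-1. *Klrc1* had 43.3 CPM in WT and 164 CPM in twi CD8+ T cells (3.80, 2.37 to 6.50), beside the 1.79-fold difference of its ligand's gene *H2-T23*, and *Klrd1* had 365 and 437 CPM (1.20, 1.01 to 1.43). In NK cells *Klrc1* had 853 and 822 CPM (0.963, 0.774 to 1.20). Some products of the Ly49 genes bind classical class I. Of these genes, *Klra1* had 32 UMIs in WT and 4 in twi NK cells (0.119, 0.0306 to 0.336), and *Klra9* 147 and 139 UMIs (0.900, 0.709 to 1.14). *Klra4* (0.559) and *Klra8* (0.573) were among the genes that gate NK cells. Ly49 genes are near copies of one another, so their separate counts are uncertain. Among 20 other class I and related genes, 5 had 10 UMIs in CD8+ T cells, of which *H2-T24*, with 0 UMIs in WT and 22 in twi, was the only one called. It was 1.65-fold higher against a floor of 3 counts, and the lower limit of its counting interval was 1.23. *Cd1d1*, which presents lipids, had 8 and 31 UMIs there (0.870, 0.391 to 2.19). It had more in B cells, 98 in WT and 21 in twi (0.585, 0.347 to 0.945). In NK cells it had 3 and 7 UMIs (2.22, 0.507 to 13.3).

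Across the 14 sums of 7 classes and 2 libraries, the genes whose log2 level was most like that of the summed heavy chains, members aside, were *Il2rg* (Pearson r = 0.92), *Shisa5* (0.912), *Gimap5* (0.910), *Cd2* (0.907) and *AW112010* (0.899), among 1377 genes of at least 100 mean CPM. *B2m* itself had r = 0.734 and rank 112. The sums share libraries and depth, and r is given as a description.

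Sequence shared with other genes limits the separate counts. In the last 500 bases of the longest coding transcript, 26.5% of 90-base windows of *H2-T22* also lay in *H2-T10*. For *H2-T23*, 13.4% lay in other genes including the pseudogene *H2-T-ps*. For *H2-Q6*, 10.9% lay in other genes including the member *H2-Q4* and *Cd59b*, and for *H2-Q4* 9.49% lay in other genes, among them *Reep3*. None did for *B2m*, *H2-K1*, *H2-D1*, *H2-Q7* or *H2-M3*. Counts of *H2-T22*, *H2-T23*, *H2-Q6* and *H2-Q4* are therefore less certain than those of the classical genes.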

How the data were processed

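CD45+ cells sorted from the brain were pooled by genotype and sequenced with the 10x Genomics 3′ v2 assay. The submitters' processing notes name Cell Ranger 2.1.1 and mm10. Each library's matrix, as deposited, holds whole UMI counts that were not normalized, for barcodes that the authors' UMI threshold had kept. From these counts, UMIs were summed per class and library and divided by the total of the same cells, with exact Poisson intervals for levels, exact conditional intervals for ratios and Clopper-Pearson intervals for shares (Python 3.11.15, NumPy 2.4.6, SciPy 1.17.1). The scripts were tested on simulated data. With 1 library per genotype no test was made, and p-values are not given.

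Gates needed at least 2 UMIs of *Cd3d*, *Cd3e* and *Cd3g* with 2 of *Cd8a* and *Cd8b1* or 1 of *Cd4*, 3 of *Ncr1*, *Klrb1c*, *Klre1*, *Klra4* and *Klra8* without *Cd3* genes, 5 of a B cell list with *Cd79a*, *Cd79b* and *Ms4a1*, 6 of 7 monocyte genes summed or 5 of 8 microglia genes summed. Neutrophils had at least 3% of UMIs from *S100a8* and *S100a9*. The minima were set on marker UMIs after their distributions were seen. No doublet caller was run, and cells past more than 1 gate were left out. All 9 members, the pathway lists and the 5 genes of highest Pearson r (log2 of CPM + 10) were named. Members and lists were chosen with earlier results of these data known, and the interferon-induced genes used for the split were chosen after the data were seen. Thinning drew 1000 UMIs per cell and left out shallower cells, 106 in WT and 20 in twi.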

Additional observations from a re-analysis of the deposited data

Results flagged for a closer look

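For *H2-K1*, *H2-D1*, *H2-Q6* and the summed heavy chains, the counting interval of the twi over WT ratio lay above 1 in some classes and below 1 in others. Differences between animals or between cells are not in these intervals, and whether the classes differ beyond them was not tested. For *H2-K1* the ratio was 1.238 in CD8+ T cells, 1.229 in CD4+ T cells and 3.36 in the microglia gate, against 0.8906 in NK cells and 0.8763 in B cells. For *H2-D1* it was 1.171 in CD8+ T cells, 1.16 in neutrophils, 1.114 in monocytes and 3.243 in the microglia gate, against 0.8724 in NK cells and 0.9099 in B cells. *H2-Q6* had 2.345 in CD8+ T cells and 0.664 in B cells. The summed heavy chains had 1.28 in CD8+ T cells, 1.192 in CD4+ T cells, 1.124 in neutrophils, 1.127 in monocytes and 3.245 in the microglia gate, against 0.8922 in NK cells and 0.9074 in B cells.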

How the results depend on the processing

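All ratios are twi over WT. As UMIs per cell, *B2m* had 1.527 in CD8+ T cells, 1.312 in NK cells, 1.195 in B cells, 1.594 in neutrophils, 1.071 in monocytes and 5.157 in the microglia gate, and heavy chains 1.437, 1.064, 1.075, 1.286, 0.9833 and 4.587 in the same order. With a total free of mitochondrial and ribosomal protein genes, CD8+ T cells had 1.263 for *B2m* and 1.188 for heavy chains, and NK cells 0.9532 for heavy chains. As a mean over cells, heavy chains had 1.368 in CD8+ T cells, 1.303 in CD4+ T cells, 0.9786 in monocytes and 2.438 in the microglia gate, where *B2m* had 3.034, *H2-M3* 0.9389 and *H2-Q7* 1.421. Thinned to 1000 UMIs, heavy chains had 1.399 in CD8+ T cells and 0.954 in monocytes, *B2m* 0.9294 in B cells and 3.037 in the microglia gate, and *H2-T23* 0.9956 in monocytes. With gate minima 1 UMI higher, *B2m* had 1.031 in CD4+ T cells and 1.369 in monocytes, and heavy chains 1.262 in monocytes. With cells of several gates assigned, monocytes had 1.501 for *B2m* and 1.442 for heavy chains. In cells with a Y transcript and no *Xist*, *B2m* had 1.188 in CD8+ T cells, 1.253 in B cells and 1.358 in monocytes, and heavy chains 0.9704 in B cells.

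Other alternatives were chosen after seeing the data. Without *Ccr7* cells, *B2m* had 1.517 in CD8+ and 1.319 in CD4+ T cells, and heavy chains 1.479 and 1.377 there and 0.8455 in B cells. In the marked cells of the microglia gate *B2m* had 2.757, and without the cell of most heavy chain UMIs in each library 3.046. The other 96 alternative values of the summed heavy chains and *B2m* moved by less than their counting interval. The cause of these shifts was not tested.

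The heavy chain ratio in CD8+ T cells stayed above 1 in 10 of 10 alternatives, between 1.188 and 1.479, while those of NK cells (0.8909 to 1.064), B cells (0.8455 to 1.075) and monocytes (0.954 to 1.442) fell on both sides of 1. No paired analysis was possible because each genotype had a single library. Animals cannot be told apart within a pool, the pools differed in sex, and the microglia gate held 24 and 22 cells.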
